A study of Mus musculus with 10 samples.

Results

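The abundant long noncoding RNAs (lncRNAs) of the mouse heart were followed in hearts that overexpress SPOP. The set was taken from the deposited table of gene values. It holds every gene on chromosomes 1 to 19 whose biotype there is a long noncoding class (lincRNA, antisense, processed transcript, sense intronic, sense overlapping or bidirectional promoter lncRNA) and whose mean over all 10 libraries was at least 100 scaled reads. Of 3686 such noncoding genes among 24888 genes in the table, 107 reached that level. They were 43 lincRNAs, 30 processed transcripts, 25 antisense genes, 7 bidirectional promoter lncRNAs and 2 sense intronic genes. A scaled read is a read count divided by the size factor that the authors gave its library. The members were thus chosen by their mean level in these libraries, which is described below without a test.

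RNA sequencing of poly(A) RNA was performed on 10 hearts. SPOP_CKI hearts (5 libraries) came from conditional knock-in mice in which Cre recombinase, driven by the alpha-myosin heavy chain promoter of cardiomyocytes, switches on SPOP, a protein that brings substrates to a cullin-3 ubiquitin ligase. Cre_control hearts (5 libraries), titled wild type, came from mice with the genotype Myh6Cre, so both groups carry the Cre transgene. All mice are labelled male, 8 to 10 weeks old and under sham conditions. Litters and preparation days are not stated, and the p-values below thus cover variation among these 10 libraries alone.

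LncRNAs are transcripts that are spliced and polyadenylated much like messenger RNA but do not encode a known protein. Some stay in the nucleus and organise nuclear bodies, some act in the cytoplasm, and others are mainly the precursors from which small nucleolar RNAs (snoRNAs) or microRNAs are cut. Several are expressed from the maternal or the paternal chromosome alone. In the heart, lncRNAs have been studied in the commitment of cardiac cells and in hypertrophy.

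The libraries held 15316293 to 17114869 reads. The 107 lncRNAs took 0.283% to 0.434% of the reads in SPOP_CKI libraries and 0.266% to 0.353% in Cre_control libraries. Spop averaged 31897 ± 6254 scaled reads in SPOP_CKI and 3425 ± 317 in Cre_control (SD, n = 5 each). The library SPOP_CKI 3 stood apart, with 1968 of the 14212 tested genes at 0 against 5 to 61 in each of the other libraries. Xist, an X-linked lncRNA of female cells, read 6491 in SPOP_CKI 1, 6578 in SPOP_CKI 3 and 4491 in Cre_control 5, and at most 5.30 in the other 7 libraries, although all mice are labelled male. Where leaving out SPOP_CKI 3 or the 3 libraries with Xist reads changed the call of a gene described below, the value without them stands beside it.

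Some members carry microRNA genes, and their sequences are shown here so that the host transcripts can be told apart by what they contain. Each sequence is the RefSeq mature form on build GRCm38.p6, with the seed (bases 2 to 8), which pairs with target messages, in capitals. A pair of clusters of related microRNAs lie inside members. The transcript 3110039I08Rik, which RefSeq names Mir100hg, spans Mir100, Mirlet7a-2 and Mir125b-1 on chromosome 9. Mir99ahg spans Mir99a, Mirlet7c-1 and Mir125b-2 on chromosome 16.
miR-100-5p (3110039I08Rik): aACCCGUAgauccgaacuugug
miR-99a-5p (Mir99ahg): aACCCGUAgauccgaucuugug
miR-125b-5p (3110039I08Rik and Mir99ahg): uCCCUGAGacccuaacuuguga
let-7a-2-3p (3110039I08Rik): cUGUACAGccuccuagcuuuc
let-7c-5p (Mir99ahg): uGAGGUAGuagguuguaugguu
miR-370-3p (Rian): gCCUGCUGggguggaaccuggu
miR-341-3p (Rian): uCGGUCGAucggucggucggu
miR-22-3p (Mir22hg): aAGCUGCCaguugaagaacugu
miR-675-5p (H19): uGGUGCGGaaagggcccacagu
miR-100-5p and miR-99a-5p share their seed, and both clusters give the same miR-125b-5p. The sequences used here held no 5p form of Mirlet7a-2. Its 3p arm is shown beside the 5p arm of let-7c, so their seeds cannot be compared. The mature microRNAs themselves were not measured here. The host 3110039I08Rik was higher in SPOP_CKI hearts and Mir99ahg did not pass the test, as described below.

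Levels were uneven within the set. Means ran from 100.7 to 6461 scaled reads with a median of 193.6, and the 10 genes with the highest means held 52.5% of the summed level. Per kilobase of the deposited gene length, which allows genes to be compared, Ndufb1-ps led with 1266 scaled reads per kilobase, followed by AC131339.2 with 1148 and Gm44386 with 1074. 1700020I14Rik, which RefSeq names Oip5os1 and which is also known as Cyrano, followed with 777.9. Gt(ROSA)26Sor, the locus used to house many mouse transgenes, had 777.8. Next came 2900097C17Rik, the cytoplasmic lncRNA Norad, with 701.1, and the nuclear Malat1 with 622.5. Neat1, the scaffold of the paraspeckle, had 180.7 over its long transcript, although its mean was the third highest. Just above the threshold of 100 lay 2010001K21Rik at 102.9, Gm24474 at 102.1 and Gm48882 at 100.7, and just below it 2010320M18Rik at 99.8, Map2k3os at 98.1 and E430024I08Rik at 98.0.

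The biotype is that of the deposited table, and RefSeq lists some members differently. Of 88 members with a RefSeq entry, 74 are lncRNA there, 12 are protein-coding and 2 are pseudogenes. The protein-coding ones include Cct6a, a subunit of the cytosolic chaperonin, Tmem134, and Ndufb1-ps, which RefSeq names Ndufb1 after a subunit of respiratory complex I. Exons of 58 members overlap exons of another gene in GENCODE M21, in 3 members by over 50% of their exonic bases. The sources used here do not give the strand setting of the counting, so reads of a member and of an overlapping gene cannot be told apart there.

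**Figure D1:**
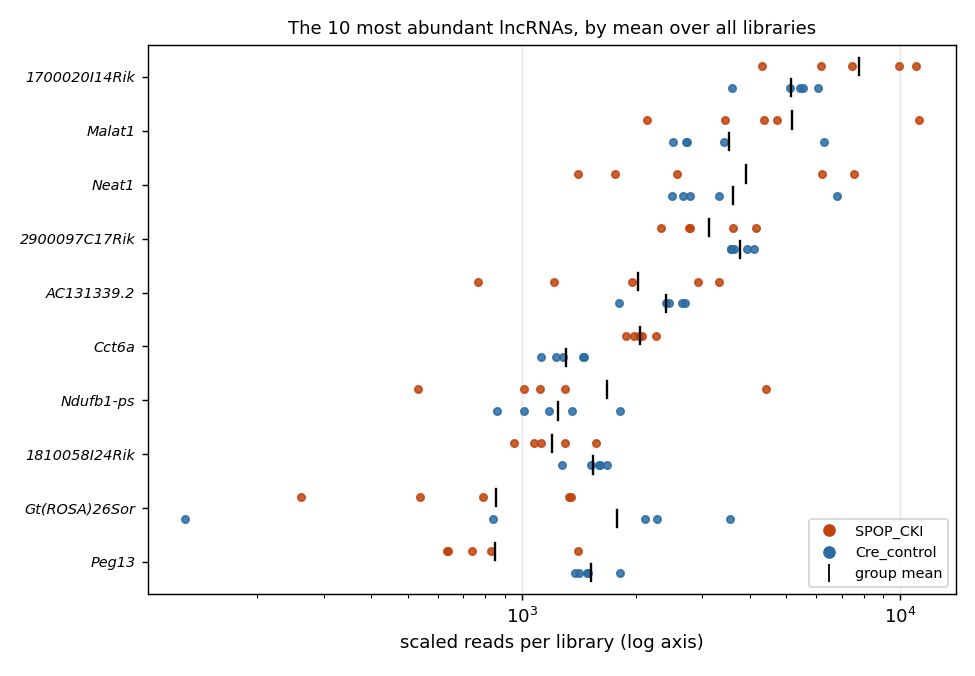
Scaled reads in every library (log axis) for the 10 lncRNAs with the highest mean, with SPOP_CKI above Cre_control for each gene and a black bar at the group mean. Groups overlap for 9 of the 10, and Cct6a stands apart, with 1886 to 2259 in SPOP_CKI and 1120 to 1461 in Cre_control.

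The first question was whether the most abundant lncRNAs differed between the groups. Of the 10 with the highest mean, Cct6a was higher and Peg13 lower in SPOP_CKI, and the other 8 did not pass the test (limma on log2 of scaled reads plus 1, with Benjamini-Hochberg adjustment at 0.05 over all 14212 genes tested). 1700020I14Rik read 7451, 4320, 9916, 6168 and 11024 in SPOP_CKI, against 5112, 5445, 5513, 3600 and 6066 in Cre_control. All but 1 of its SPOP_CKI libraries lay above the highest control, and the log2 difference was 0.54 (SE 0.26, limma adjusted p = 0.151). 2900097C17Rik averaged 3130 ± 734 in SPOP_CKI and 3761 ± 245 in Cre_control (limma adjusted p = 0.233). AC131339.2 averaged 2032 ± 1081 in SPOP_CKI and 2403 ± 358 in Cre_control (limma adjusted p = 0.406). 1810058I24Rik, which RefSeq lists as protein-coding, averaged 1203 ± 238 in SPOP_CKI and 1538 ± 156 in Cre_control (limma adjusted p = 0.116), and was lower without the libraries with Xist reads (log2 difference −0.54, adjusted p = 0.0307).

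Malat1 and Neat1, neighbours on chromosome 19, varied more between libraries of a group than between the groups. Malat1 read 4733, 4351, 3442, 2140 and 11184 in SPOP_CKI and 2731, 2500, 2714, 6266 and 3410 in Cre_control. Neat1 read 7544, 6197, 2577, 1767 and 1406 in SPOP_CKI and 2779, 3314, 2664, 6791 and 2497 in Cre_control. The highest SPOP_CKI library of Malat1, SPOP_CKI 5, was the lowest for Neat1, whereas Cre_control 4 was the highest control for both. The differences were 0.42 (SE 0.40) for Malat1 and −0.09 (SE 0.48) for Neat1 on the log2 scale (limma adjusted p = 0.463 and 0.898), and that of Neat1 changed sign with the tool, at 0.14 in edgeR.

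Tug1, a broadly expressed lncRNA with long transcripts, read 1208, 914, 1780, 1117 and 1580 in SPOP_CKI and 883, 857, 1014, 700 and 964 in Cre_control. It missed the threshold in limma (log2 difference 0.55, SE 0.19, adjusted p = 0.0635) and passed it in edgeR (adjusted p = 0.0480). Gt(ROSA)26Sor had its widest spread among controls, at 129 to 3552, against 261 to 1350 in SPOP_CKI (limma adjusted p = 0.591).

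Across the set, 12 members were higher and 20 lower in SPOP_CKI (limma). Over all 14212 tested genes 10.0% were higher and 12.3% lower, and the members' shares were 11.2% and 18.7%. edgeR, whose counts split differently, called 15 higher (11.8% of all tested genes) and 15 lower (10.4%). The median difference of the members was −0.29 on the log2 scale, against −0.11 for all tested genes and −0.04 for protein-coding genes between a mean of 100 and that of the highest member. The 553 tested lncRNAs below the threshold had a median of −0.58, with 20 higher and 46 lower. These medians include SPOP_CKI 3, the library that stood apart. Without it the median of all tested genes was −0.02. In that fit 30 of the lncRNAs below the threshold were higher and 88 lower, against 13.7% and 17.3% of all tested genes. A member could pass the level through 1 group alone. In 22 members a group mean was under 100, among them 3 of the 12 higher and 10 of the 20 lower. The 3 were Rian, Gm42047 and Gm39214. The 10 include 2410006H16Rik, Gm24474, 4930481A15Rik, Gm49477, Gm17281, 2610035D17Rik and Bvht. For these members the choice of the set and the size of the difference are not independent. Quantile normalization moved the median of all tested genes by over 0.1, to 0.03. It gave 13 higher and 18 lower members, against 13.2% and 13.6% of all tested genes. With single libraries left out, the decreases numbered 10 without Cre_control 1, 13 without Cre_control 4 and 13 without SPOP_CKI 4. The share of all tested genes called lower fell in the same fits, to 7.48%, 7.59% and 9.10%. Without the 3 libraries with Xist reads 49 members were called (30.7% of all tested genes), 15 higher and 34 lower, while 1953 of all tested genes were higher there and 2410 lower.

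**Figure D2:**
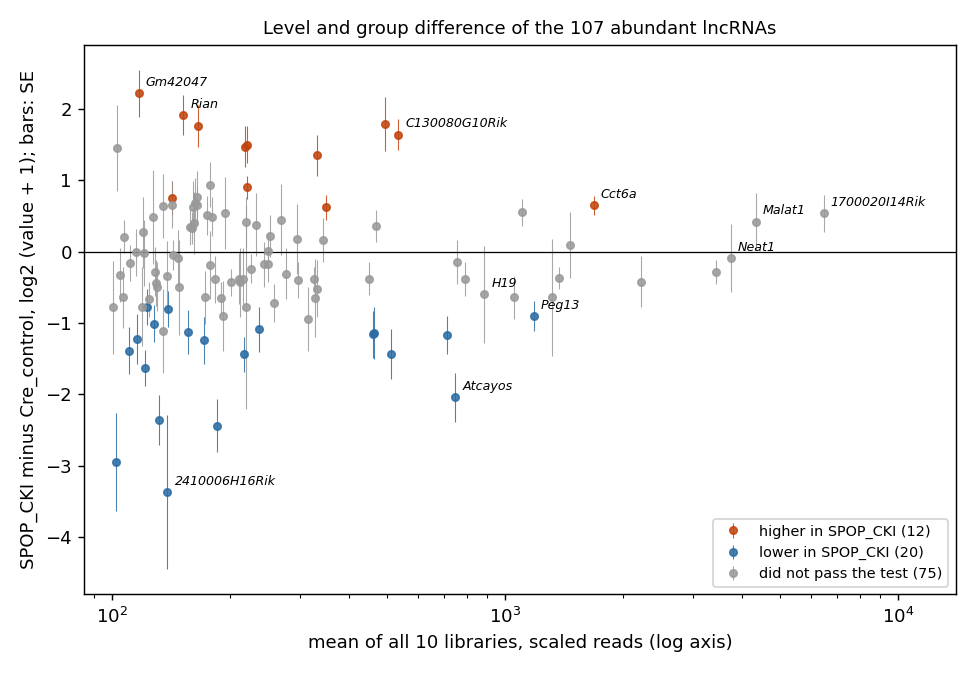
Difference between SPOP_CKI and Cre_control (log2 scale, bars are SE) against the mean of all 10 libraries (log axis) for the 107 lncRNAs. Members higher in SPOP_CKI are red (12), those lower blue (20) and the rest grey (75), and the named points include the most abundant members, of which Cct6a (0.65) and Peg13 (−0.90) passed the test.

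Among the increases, the 10 with no overlap between groups are described first (9.01% of all tested genes were higher without overlap). Rian, also called Meg8, is a maternally expressed lncRNA of the imprinted Dlk1-Dio3 locus and a host of snoRNAs and microRNAs (chromosome 12, 109603940 to 109661716, plus strand). It read 197, 276, 178, 417 and 150 in SPOP_CKI, against 60.5, 64.4, 52.2, 67.3 and 55.7 in Cre_control. The lowest SPOP_CKI library lay 2.23-fold above the highest control, and the log2 difference was 1.91 (SE 0.28, limma adjusted p = 0.00143). Within the locus the annotation places 13 snoRNA and 4 microRNA genes inside Rian, among them Mir341, Mir370 and Mir1188. Of the other genes of the locus looked at, Meg3 alone was tested, and it was not called. Meg3, below the level that chose the set, read 115, 163, 0, 96.7 and 82.7 in SPOP_CKI and 67.9, 23.6, 69.2, 123 and 92.2 in Cre_control. Its log2 difference was −0.63 (SE 1.22, limma adjusted p = 0.734) with the 0 of SPOP_CKI 3. Without that library it was 0.73 (limma adjusted p = 0.1855). Mirg, Dlk1 and Rtl1 averaged under 10 in either group and were not tested. Dio3 was not tested either, and read 69.4 in SPOP_CKI 2, 31.4 in SPOP_CKI 4 and 0 in the other 8 libraries.

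3110039I08Rik (Mir100hg, chromosome 9, 41327077 to 41716994, plus strand) hosts the miR-100, let-7a-2 and miR-125b-1 genes whose sequences are shown above. It read 406, 494, 309, 247 and 198 in SPOP_CKI, against 123, 113, 124, 80.7 and 116 in Cre_control, so the groups did not overlap. The log2 difference was 1.50 (SE 0.26, limma adjusted p = 0.00302). Mir99ahg, the host of the related cluster, read 286, 273, 105, 210 and 393 in SPOP_CKI and 229, 156, 228, 92.3 and 218 in Cre_control, and its groups overlapped (log2 difference 0.41, SE 0.36, limma adjusted p = 0.430). The difference between the 2 hosts was not tested. Mir22hg, host of miR-22, averaged 255 ± 105 in SPOP_CKI and 299 ± 99.2 in Cre_control, and did not pass (limma adjusted p = 0.556).

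C130080G10Rik is an antisense gene that starts 787 bases from Actc1, the cardiac alpha-actin gene, and runs the opposite way (chromosome 2, 114054335 to 114064868, plus strand). It read 1026, 598, 642, 705 and 1096 in SPOP_CKI, against 272, 285, 206, 204 and 315 in Cre_control. The groups did not overlap, and the difference was 1.64 (SE 0.22, limma adjusted p = 0.000826). Actc1 was higher as well, at 156876 ± 43745 in SPOP_CKI and 80820 ± 24991 in Cre_control, with overlapping groups (log2 difference 0.97, SE 0.28, limma adjusted p = 0.0285). Without the libraries with Xist reads Actc1 did not pass (log2 difference 0.87, adjusted p = 0.0762), and it passed in 15 of 20 alternative fits. Exons of A530058N18Rik, on the same strand, cover 38.7% of the exonic bases of C130080G10Rik. The promoters of this pair are shown because both genes were higher over all libraries. They are RefSeq sequences on GRCm38.p6, from 250 bases before to 50 after the RefSeq gene start, 5′ to 3′ on the strand of the gene, with motif matches in capitals.
C130080G10Rik, chr2:114054146-114054445, plus strand: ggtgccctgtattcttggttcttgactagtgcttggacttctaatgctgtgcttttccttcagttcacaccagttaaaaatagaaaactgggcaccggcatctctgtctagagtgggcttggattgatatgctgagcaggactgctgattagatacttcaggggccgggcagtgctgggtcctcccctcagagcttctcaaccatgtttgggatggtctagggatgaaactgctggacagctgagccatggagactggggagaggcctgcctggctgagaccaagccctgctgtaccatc
Actc1, chr2:114052826-114053125, minus strand: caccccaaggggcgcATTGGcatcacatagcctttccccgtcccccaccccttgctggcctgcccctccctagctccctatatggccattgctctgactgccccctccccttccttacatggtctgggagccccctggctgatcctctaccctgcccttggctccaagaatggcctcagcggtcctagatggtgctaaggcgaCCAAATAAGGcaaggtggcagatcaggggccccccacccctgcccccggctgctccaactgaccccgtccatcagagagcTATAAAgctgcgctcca
Of the motifs searched on both strands, none was matched in the C130080G10Rik window. The Actc1 window held the letters of a CCAAT box, of a CArG box, the element bound by serum response factor, and of a TATA box (TATAAA). The TATAAA match starts 33 bases after the RefSeq start, and the whole window lies inside the span of Actc1 in the deposited table, where the gene begins further upstream. Among 32841 RefSeq promoters of this length, 37.4% held CCAAT, 1.63% a CArG box and 13.6% TATAAA.

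Gm42047, whose Cre_control mean of 39.8 lay under the level that chose the set, had the largest difference among the called increases. It read 152, 237, 300, 173 and 108 in SPOP_CKI, against 23.3, 52.6, 32.9, 43.3 and 47.2 in Cre_control (log2 difference 2.22, SE 0.33, limma adjusted p = 0.00162). AI506816 read 671, 1631, 364, 825 and 432 in SPOP_CKI, against 247, 271, 166, 121 and 213 in Cre_control, a difference of 1.79 (SE 0.38, limma adjusted p = 0.00838). The groups did not overlap for either gene, and SPOP_CKI 2 stood highest for AI506816. Dubr, studied in mouse for its part in muscle differentiation, read 295, 254, 250, 304 and 335 in SPOP_CKI, against 173, 132, 158, 157 and 148 in Cre_control. Its spread was narrow in both groups, and the difference of 0.90 (SE 0.16) passed the test (limma adjusted p = 0.00370).

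Hectd2os, antisense to the ubiquitin ligase gene Hectd2, read 445, 378, 187, 444 and 182 in SPOP_CKI, against 130, 99.8, 115, 94.2 and 108 in Cre_control (log2 difference 1.47, SE 0.29, limma adjusted p = 0.00565). It did not pass after GC centring. Exons of Hectd2 cover 46.1% of its exonic bases, and Hectd2 was higher too (log2 difference 1.20, limma adjusted p = 0.0261). Gm39214 averaged 255 ± 78.5 in SPOP_CKI and 76.0 ± 26.5 in Cre_control, and 9230112J17Rik 483 ± 190 in SPOP_CKI and 181 ± 46.3 in Cre_control. Cct6a, which RefSeq lists as protein-coding, averaged 2047 ± 139 in SPOP_CKI and 1311 ± 146 in Cre_control. The remaining increases, with overlapping groups, were Gm43597, at 181 ± 59.0 in SPOP_CKI and 104 ± 8.38 in Cre_control, and Brip1os, at 423 ± 71.3 in SPOP_CKI and 276 ± 49.1 in Cre_control. Gm43597 was not called without the libraries with Xist reads (log2 difference 0.44, adjusted p = 0.158), and passed in 9 of 20 alternative fits.

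Among the decreases, 14 had no overlap between groups (12.3% of all tested genes were lower without overlap). One of these was Atcayos (chromosome 10, 81194609 to 81210877, plus strand), antisense to Atcay, which encodes caytaxin. It read 603, 140, 247, 282 and 278 in SPOP_CKI, against 1492, 1056, 695, 1454 and 1220 in Cre_control. The highest SPOP_CKI library lay below the lowest control, and the log2 difference was −2.04 (SE 0.34, limma adjusted p = 0.00275). Atcay was also lower, at 13.4 ± 15.5 in SPOP_CKI and 85.6 ± 36.6 in Cre_control (log2 difference −3.25, limma adjusted p = 0.0178). That difference includes a 0 in SPOP_CKI 3, and was −2.49 without that library (limma adjusted p = 0.00304). A second gene under Atcayos moved the other way. Nmrk2, a nicotinamide riboside kinase gene named after its values were seen, read 1535, 3873, 421, 1460 and 215 in SPOP_CKI, against 67.9, 55.8, 64.6, 171 and 159 in Cre_control (log2 difference 3.36, limma adjusted p = 0.00778). Together the exons of Atcay and Nmrk2 cover 16.1% of the exonic bases of Atcayos.

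The promoters of Atcayos and of the lincRNA 2610035D17Rik are shown as decreased members with TATAAA near the RefSeq start. The coordinates, build and capitals are as above.
Atcayos, chr10:81194441-81194740, plus strand: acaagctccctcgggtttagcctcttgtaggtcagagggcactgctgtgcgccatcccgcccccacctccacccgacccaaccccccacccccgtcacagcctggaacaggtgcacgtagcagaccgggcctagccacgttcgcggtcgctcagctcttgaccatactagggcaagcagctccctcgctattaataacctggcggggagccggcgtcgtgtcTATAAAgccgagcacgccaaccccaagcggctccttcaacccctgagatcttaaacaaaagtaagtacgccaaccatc
2610035D17Rik, chr11:113201789-113202088, minus strand: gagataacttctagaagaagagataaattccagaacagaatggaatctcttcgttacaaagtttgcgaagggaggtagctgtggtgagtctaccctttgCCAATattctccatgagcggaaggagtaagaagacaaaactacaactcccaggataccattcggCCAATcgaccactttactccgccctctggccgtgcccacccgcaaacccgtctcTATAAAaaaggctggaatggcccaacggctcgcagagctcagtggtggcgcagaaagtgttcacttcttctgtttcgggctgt
The match starts 28 bases before the RefSeq start of Atcayos and 33 bases before that of 2610035D17Rik, which also holds CCAAT at a pair of places. The deposited table begins Atcayos further upstream, so that the match lies inside the gene there. 2610035D17Rik averaged 63.1 ± 24.8 in SPOP_CKI and 157 ± 34.6 in Cre_control (log2 difference −1.39, limma adjusted p = 0.0137). RefSeq promoters were found for 72 members and gave 81 windows. TATAAA was in 17.3% of them, against 13.6% of all promoters, CCAAT in 35.8% against 37.4%, and the E-box CACGTG in 11.1% against 7.15%. The AP-1 site TGANTCA was in 6.17% against 7.81%, the cyclic AMP response element TGACGTCA in 3.70% against 1.79%, and the C/EBP-ATF response element TGATGNAA in 3.70% against 3.97%. A MEF2 site was in 2.47% against 0.557%, and a CArG box in 1.23% against 1.63%. Neither the oestrogen-related receptor element TCAAGGTCA, in 0.423% of all promoters, nor the DR1 element of PPAR receptors, in 0.0396%, was matched in a member's window. The oestrogen-related receptor and DR1 elements share the half-site AGGTCA.

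Gm49477, a lincRNA on chromosome 15, read 67.8, 36.4, 19.3, 41.0 and 55.5 in SPOP_CKI, against 235, 146, 205, 314 and 195 in Cre_control (log2 difference −2.36, SE 0.35, limma adjusted p = 0.00143). 4930481A15Rik, antisense to the transcriptional corepressor gene Drap1, read 142, 28.9, 35.0, 65.3 and 53.1 in SPOP_CKI, against 263, 318, 331, 335 and 279 in Cre_control (log2 difference −2.44, SE 0.37, limma adjusted p = 0.00164). Neither gene had overlapping groups. Drap1 averaged 1417 ± 682 in SPOP_CKI and 2811 ± 1079 in Cre_control and did not pass (limma adjusted p = 0.0724), but was lower in DESeq2 (adjusted p = 0.0366) and in limma without SPOP_CKI 3 (adjusted p = 0.0493) or without the libraries with Xist reads (adjusted p = 0.0292). Gm24474 read 35.2, 3.30, 95.5, 9.58 and 29.5 in SPOP_CKI, against 156, 127, 167, 231 and 168 in Cre_control (log2 difference −2.95, SE 0.69, limma adjusted p = 0.0128).

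2410006H16Rik, the host of Snord49a, Snord49b and Snord65, had the largest fitted decrease, which rested partly on single libraries. It read 24.4, 80.1, 0, 71.4 and 10.6 in SPOP_CKI, against 213, 149, 118, 631 and 84.7 in Cre_control. The highest SPOP_CKI value and the lowest control value almost met. The difference was −3.37 (SE 1.08, limma adjusted p = 0.0451) with the 0 of SPOP_CKI 3 and −2.34 (adjusted p = 0.0255) without that library, and it passed in 10 of 20 alternative fits.

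Peg13 is a paternally expressed lncRNA inside an intron of Trappc9 (chromosome 15, 72805600 to 72810324, minus strand). It read 828, 634, 639, 738 and 1408 in SPOP_CKI, against 1495, 1384, 1483, 1415 and 1816 in Cre_control. SPOP_CKI 5 alone reached into the control range. The difference was −0.90 (SE 0.21, limma adjusted p = 0.0132) and passed in all 20 alternative fits. Trappc9, transcribed from the same strand, averaged 373 ± 75.1 in SPOP_CKI and 694 ± 26.0 in Cre_control (log2 difference −0.91, limma adjusted p = 0.00272). The lncRNA lies in an intron of Trappc9, and its exons overlap none of that gene's exons.

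Bvht, known as Braveheart and studied in mouse cells for cardiac commitment, read 138, 66.1, 90.2, 87.1 and 74.4 in SPOP_CKI, against 152, 143, 117, 205 and 158 in Cre_control (log2 difference −0.78, SE 0.25, limma adjusted p = 0.0433). SPOP_CKI 1 lay inside the control range, and edgeR gave an adjusted p of 0.0648. Bvht passed in 8 of 20 alternative fits, as did 9430091E24Rik. Gm17281, a lincRNA whose start overlaps that of Pacsin3 on the other strand, averaged 60.1 ± 20.1 in SPOP_CKI and 182 ± 18.8 in Cre_control, and Pacsin3 was lower too (log2 difference −1.03, limma adjusted p = 0.0218). 9330158H04Rik, opposite the muscarinic receptor gene Chrm2, averaged 120 ± 37.7 in SPOP_CKI and 315 ± 39.3 in Cre_control, while Chrm2 averaged 2804 ± 1329 in SPOP_CKI and 2595 ± 847 in Cre_control (limma adjusted p = 0.935). Gm43672, 510 bases from Tbl1xr1, averaged 301 ± 147 in SPOP_CKI and 727 ± 84.5 in Cre_control, and Gm34934, 97 bases from Samd4, 108 ± 51.6 in SPOP_CKI and 234 ± 40.2 in Cre_control. Neither Tbl1xr1 nor Samd4 was called (limma adjusted p = 0.799 and 0.249). The other 8 decreases lay between −1.22 and −0.80 on the log2 scale and included Tmem134, which RefSeq lists as protein-coding, and Gm44386, which followed AC131339.2 per kilobase, at 292 ± 121 in SPOP_CKI and 630 ± 231 in Cre_control.

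**Figure D3:**
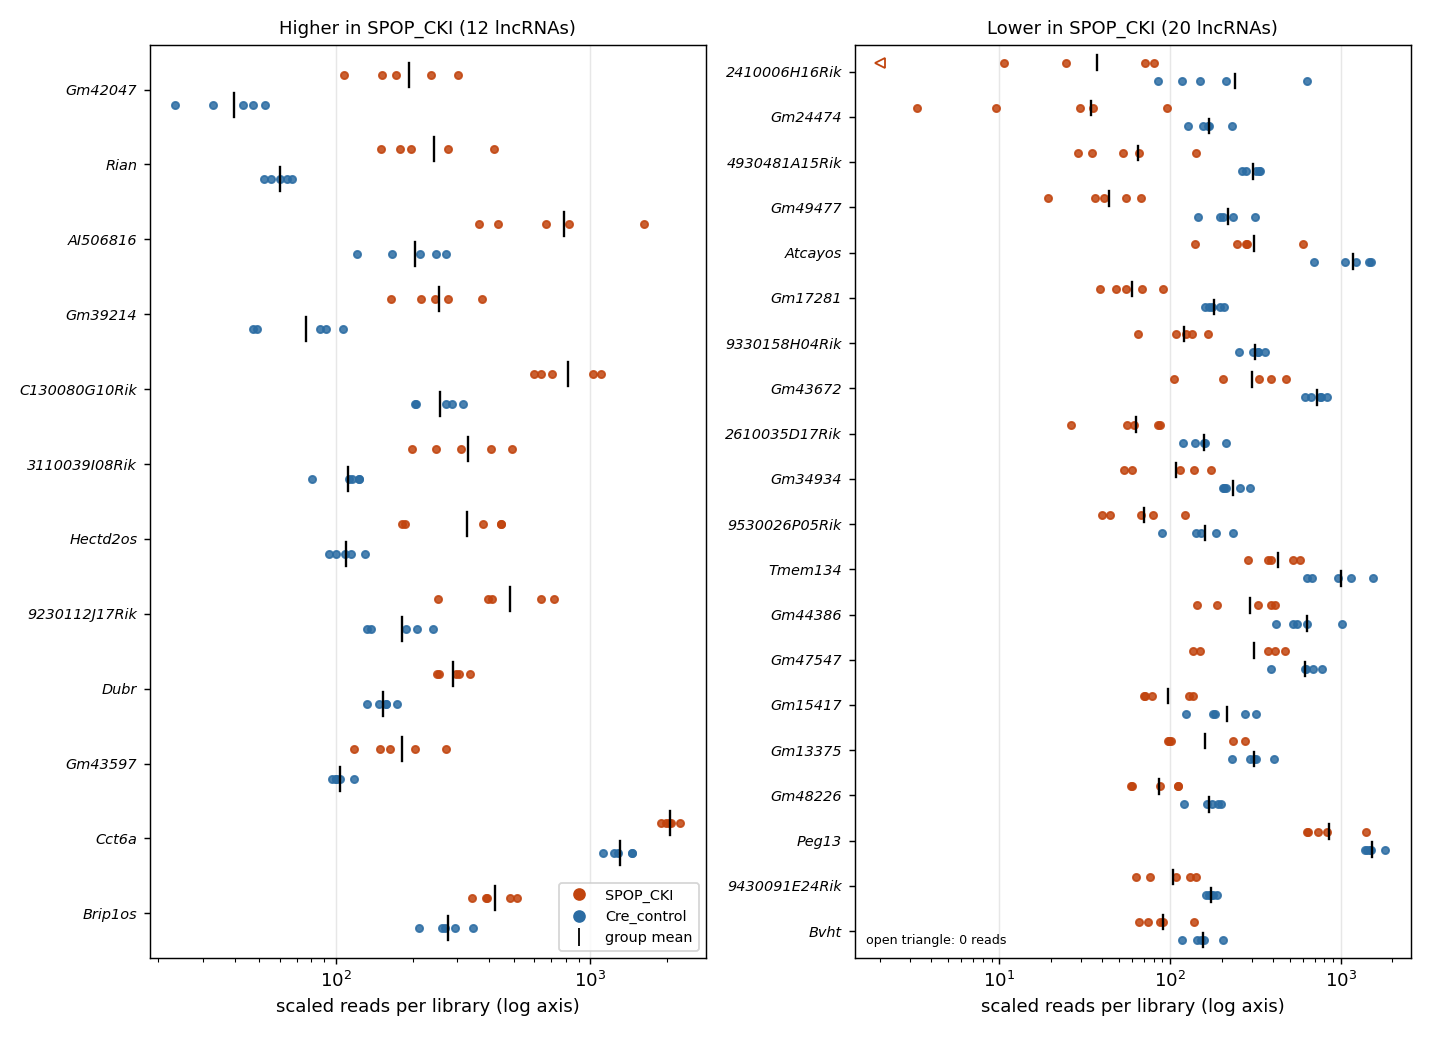
Scaled reads in every library (log axis) for the 12 lncRNAs higher in SPOP_CKI and the 20 lower, with SPOP_CKI above Cre_control for each gene, black bars at the group means and an open triangle for 0 reads. Most genes show separate groups, whereas Gm43597, Brip1os, Peg13 and Bvht are among those whose groups overlap.

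Each member was also set beside 1 protein-coding gene, the one with the longest overlap or else the nearest within 10 kb. Of the 12 increased members 9 had such a gene, of which 4 were higher, none was lower, 4 did not pass and 1 was not tested (limma). The 4 were Actc1, Hectd2, N4bp2l2 beside Gm43597, and Ints2, an Integrator subunit gene under Brip1os, at 190 ± 47.9 in SPOP_CKI and 58.0 ± 11.2 in Cre_control (log2 difference 1.67). Of the 20 decreased members 15 had one, of which 5 were lower, none was higher and 10 did not pass. Neither count of 0 changed in edgeR or DESeq2, and none of these genes reached an unadjusted p under 0.05 in the opposite direction in limma. Over all tested genes 10.0% were higher and 12.3% lower. With 8 and 15 neighbouring genes tested, counts of 0 lie near those shares. Nmrk2, the shorter overlap of Atcayos, is outside these counts and was higher. Without the libraries with Xist reads Actc1 and Pdpr (adjusted p = 0.133) were not called, while Drap1 was lower and Thsd4, beside 9230112J17Rik, higher (adjusted p = 0.00640). Thsd4 was also higher without SPOP_CKI 3 (limma adjusted p = 0.00621). The 5 lower genes were Atcay, Pacsin3, Trappc9, Pdpr opposite 9430091E24Rik and Gphn opposite Gm48226, whose differences ran from −3.25 to −0.80. Beside the members that did not pass, 6 of 57 genes were higher, 7 were lower and 6 were not tested. Among members with exons over another gene 8 were higher and 7 lower of 58, and among those without 4 were higher and 13 lower of 49.

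**Figure D4:**
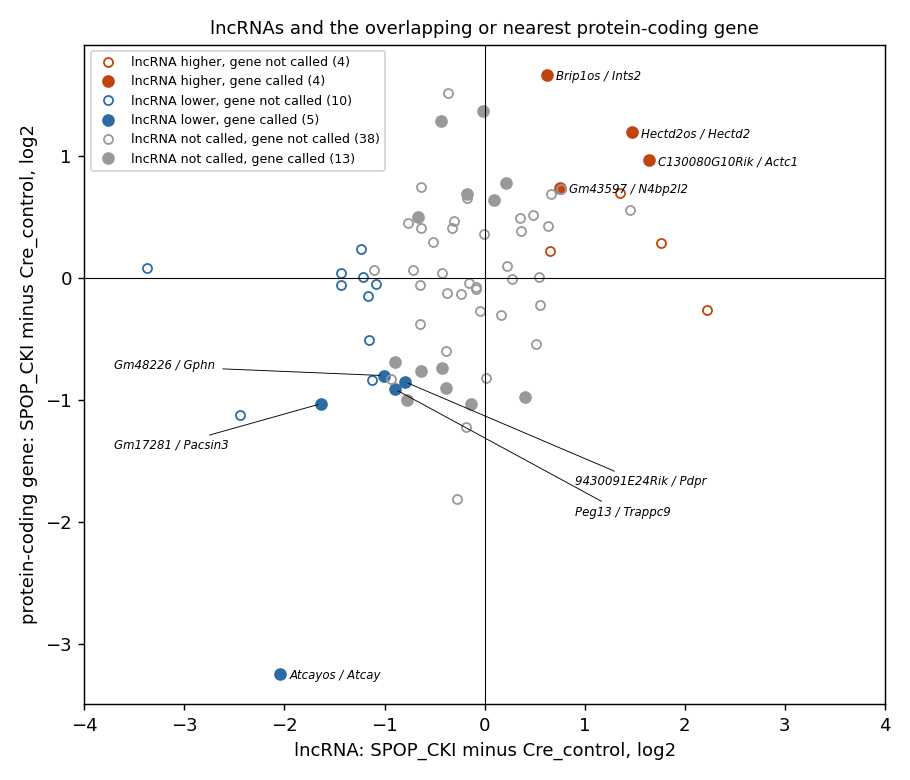
Difference of each lncRNA (x axis) and of its overlapping or nearest protein-coding gene (y axis), SPOP_CKI minus Cre_control on the log2 scale, for pairs with both genes tested. Filled points mark protein-coding genes that passed the test: beside called lncRNAs, 4 at the upper right and 5 at the lower left.

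Hosts of snoRNAs, which release box C/D or H/ACA guide RNAs from their introns, were examined as a group. Of 12 members with an annotated snoRNA gene inside, Rian, AI506816 and Cct6a were higher and 2410006H16Rik was lower. Over all tested genes 10.0% were higher and 12.3% lower. The annotated snoRNA gene inside AI506816 is named Mir3096, and Cct6a is protein-coding in RefSeq. Of the 7 listed snoRNA hosts in the set, 2410006H16Rik alone passed. Gas5, a growth-arrest transcript, read 223, 548, 157, 361 and 135 in SPOP_CKI and 347, 234, 354, 669 and 295 in Cre_control (limma adjusted p = 0.358). Zfas1 read 71.4, 149, 75.3, 139 and 16.5 in SPOP_CKI and 156, 135, 172, 363 and 69.7 in Cre_control (limma adjusted p = 0.192). Libraries of both groups overlapped in each. Znfx1, the gene opposite Zfas1, did not pass (limma adjusted p = 0.890). It was higher without the libraries with Xist reads (log2 difference 0.69, limma adjusted p = 0.0196). Snhg1, Snhg6, Snhg14 and Snhg18 averaged 139 ± 81.2, 322 ± 292, 149 ± 115 and 205 ± 55.4 in SPOP_CKI, against 101 ± 42.4, 216 ± 146, 106 ± 52.3 and 143 ± 38.9 in Cre_control, and none passed (limma adjusted p of 0.201 to 0.720). The order of Snhg1, Snhg6 and Snhg14 was reversed without the libraries with Xist reads. Of 14 listed snoRNP proteins, Nop58 (log2 difference 1.19) and the pseudouridine synthase Dkc1 (0.64) were higher and Nop10 (−0.93) was lower.

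The remaining imprinted members showed no difference past the test. H19, a maternally expressed lncRNA that hosts miR-675, read 1754, 777, 108, 253 and 1506 in SPOP_CKI and 959, 1301, 771, 897 and 525 in Cre_control. Its SPOP_CKI libraries spread on both sides of the controls (limma adjusted p = 0.544). Airn, the paternally expressed antisense transcript of Igf2r, averaged 175 ± 39.6 in SPOP_CKI and 139 ± 39.3 in Cre_control (limma adjusted p = 0.356). Of the 60 lncRNAs listed by role, 30 others were in the table below the level that chose the set. Of these 18 were tested, and 4 were higher and 1 was lower, against 10.0% and 12.3% of all tested genes. Dnm3os averaged 159 ± 56.5 in SPOP_CKI and 34.5 ± 8.62 in Cre_control. Kcnq1ot1, the paternally expressed antisense RNA of Kcnq1, averaged 104 ± 45.9 in SPOP_CKI and 37.3 ± 8.65 in Cre_control. Snhg15 averaged 57.6 ± 29.9 in SPOP_CKI and 12.7 ± 5.51 in Cre_control, and Pvt1 50.1 ± 26.9 in SPOP_CKI and 13.9 ± 6.60 in Cre_control. Pvt1 passed in 8 of 20 alternative fits and not without the libraries with Xist reads (adjusted p = 0.0670). Epb41l4aos averaged 25.7 ± 11.3 in SPOP_CKI and 90.3 ± 62.8 in Cre_control, and passed in 10 of 20 alternative fits. Mhrt, transcribed from the myosin heavy chain locus, averaged 34.1 ± 30.4 in SPOP_CKI and 89.1 ± 26.0 in Cre_control. Its groups did not overlap. It did not pass over all libraries (limma adjusted p = 0.112), with a 0 in SPOP_CKI 3, and was lower without that library (adjusted p = 0.0375) or without the libraries with Xist reads (adjusted p = 0.0278).

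Factors that degrade or trim such RNAs were listed as well. Of 14 factors of nonsense-mediated decay, which clears many snoRNA hosts, none passed in limma, edgeR or DESeq2, and 2 had an unadjusted p under 0.05 in limma, both lower in SPOP_CKI. Of 14 tested factors of the nuclear exosome and 3′-end processing, Dis3 (log2 difference 0.63) and Zfc3h1 (0.72) were higher and Elac2 (−0.63) was lower (limma). In limma 10.0% of all tested genes were higher and 12.3% lower, and the counts of these exosome and processing factors lie near those shares. Elac2 was not called without the libraries with Xist reads (adjusted p = 0.0749).

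**Figure D5:**
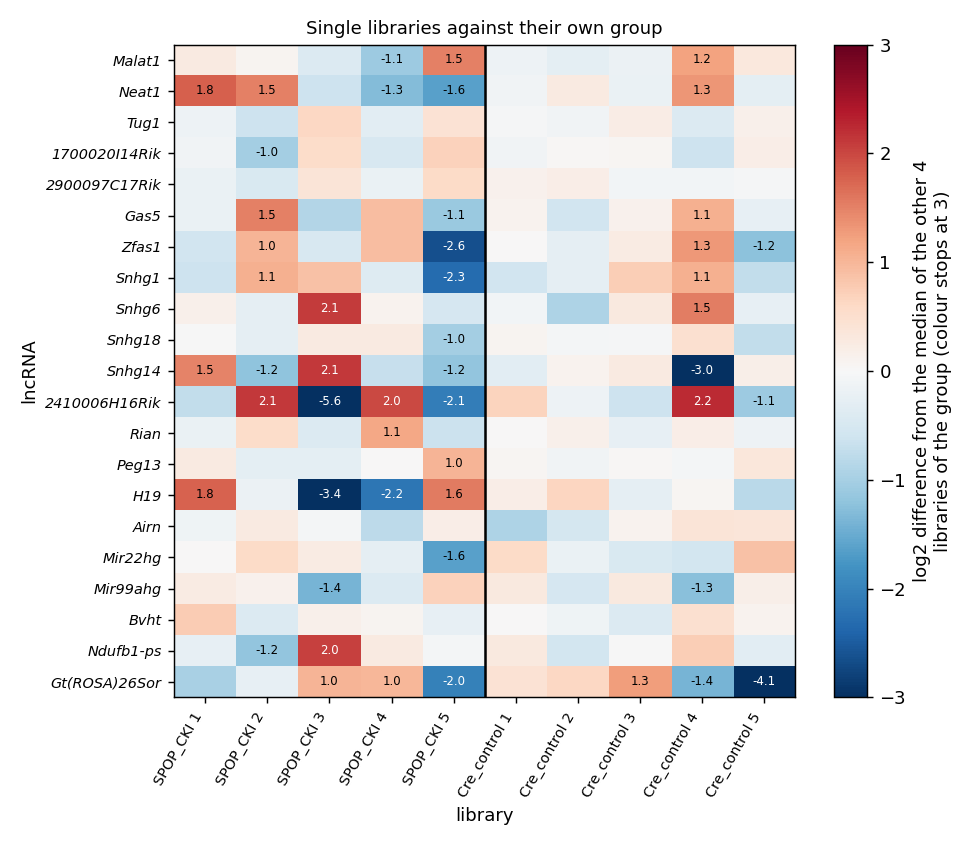
Log2 difference of each library from the median of the other 4 libraries of its group for 21 named lncRNAs, with SPOP_CKI on the left, red for above and blue for below; values of at least 1 in size are printed. Cre_control 4 is above its group for Malat1, Neat1, Gas5, Zfas1, Snhg1, Snhg6 and 2410006H16Rik, and SPOP_CKI 3 is high for Snhg6 and low for H19.

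The spread among SPOP_CKI libraries was wider than among controls. Against the median of the other libraries of the group, 34 members in SPOP_CKI 3 and 39 in SPOP_CKI 2 deviated by over 1 on the log2 scale, whereas in Cre_control 1, 2 and 3 at most 1 did. Cre_control 4 deviated for 12 members. Summed markers of endothelial, erythroid, skeletal muscle and ventricular cardiomyocyte cells separated the groups, while the sums of the other marker lists overlapped. The summed level of 5 endothelial markers was 13619 to 23724 in SPOP_CKI and 36493 to 52342 in Cre_control, with 4 of 5 lower, and that of 4 erythroid markers 4168 to 7779 in SPOP_CKI and 12572 to 26004 in Cre_control, with all 3 tested lower. That of 3 skeletal muscle markers was 7423 to 12212 in SPOP_CKI and 17264 to 27633 in Cre_control, with 1 of 2 tested lower. The sum of 6 fibroblast markers was 28024 to 120771 in SPOP_CKI and 25591 to 29607 in Cre_control, with 2 higher, and that of 6 myeloid markers 3775 to 21495 in SPOP_CKI and 4502 to 7615 in Cre_control, with 2 higher. For 5 atrial markers it was 2753 to 18641 in SPOP_CKI and 240.3 to 4225 in Cre_control, with 1 of 2 tested higher, and for 3 neural markers 170.8 to 441 in SPOP_CKI and 68.7 to 178 in Cre_control, with 1 of 2 tested higher. The 5 smooth muscle markers summed to 22481 to 33930 in SPOP_CKI and 21334 to 28677 in Cre_control, with 1 higher, and the 4 lymphocyte markers to 0 to 66.1 in SPOP_CKI and 18.1 to 56.2 in Cre_control, with none tested. The 8 ventricular cardiomyocyte markers, all detected, summed to 347264 to 647041 in SPOP_CKI and 659669 to 823743 in Cre_control, with 1 higher and 3 lower. No listed marker was at 0 in all libraries. The part of these cells in the lncRNA differences was not tested, and in bulk tissue fewer cells of a type and less RNA per cell cannot be told apart.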

How the data were processed

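The submitters' processing notes name featureCounts 1.5.0-p3, DESeq2 1.20.0 and mm10. Aligner, annotation release and strand setting: not given in the sources used here. Values deposited by the authors for each library are a read signal scaled by size factors. At a tolerance of 0.001, 100% of values were whole multiples of the value of 1 read, so reads were recovered. The authors also deposited log2 fold changes and p-values, used for 1 count. Members and lists were chosen with earlier results of these data known. The test was limma 3.58.1 (eBayes with trend and robust variances, R 4.3.3) on log2(value + 1) for the 14212 genes that reached 10 in 5 or more libraries, two-sided, Benjamini-Hochberg adjusted at 0.05, with genotype as its sole term. Adding 1 shrinks the fold change of low genes, whereas a 0 in 1 library can enlarge it, as for Atcay and SPOP_CKI 3. Alternatives were edgeR 4.0.16 and DESeq2 1.42.0 on recovered reads, TMM, quantile and GC scaling, other pseudocounts, no filter, left-out libraries and a replicate block. edgeR called 3168 and DESeq2 4141 genes. Neighbouring genes came from the coordinates of the deposited table. Exon overlaps, hosted small RNAs and GC content came from GENCODE M21, and sequences from RefSeq GRCm38.p6. Named are Spop, Xist, the 10 members highest by mean and by mean per kilobase, the 10 largest non-overlapping differences in each direction, members of the lists, members beside the threshold, and neighbours. A list of paraspeckle proteins is not reported here. Scripts were tested on simulated data.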

Additional observations from a re-analysis of the deposited data

Results flagged for a closer look

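In groups of 5, a library was marked when its gap to the nearest other library exceeded 0.71 of the range of the group (Dixon's critical value). Of 150 groups of values examined, 16 were marked. Chance marks about 1 in 20 groups.

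Among SPOP_CKI libraries, Malat1 stood at 11184 in SPOP_CKI 5, above the next library at 4733. Peg13 stood at 1408 in the same library, above 828, and so did Atcay at 40.2, above 9.94, and Sema5a, the gene beside Snhg18, at 1044, above 431. SPOP_CKI 3 read 4406 for Ndufb1-ps, above 1299, and 842.5 for Snhg6, above 220. SPOP_CKI 3 is the library that stood apart and is among those with Xist reads.

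Among controls, most marks fell on Cre_control 4. It read 6266 for Malat1, above the next control at 3410, and 6791 for Neat1, above 3314. It read 669 for Gas5, 468.1 for Snhg6 and 630.5 for 2410006H16Rik, against 354, 197 and 213 in the nearest controls. Drap1 stood at 4672 there. The same library was low for Snhg14, at 15.38, and for 3110039I08Rik, at 80.74, against 106 and 113 in the nearest controls. Cre_control 5 read 1816 for Peg13, above 1495, and 584.1 for Morc2a, the gene opposite Tug1, above 462. What sets Cre_control 4 apart was not tested.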

How the results depend on the processing

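Spop stayed higher in every fit. Leaving out each library in turn gave 10 to 15 higher and 10 to 22 lower members, against 12 and 20 in all libraries. In those fits 6.26% to 13.7% of all tested genes were higher and 7.48% to 17.3% lower, so the shares of all genes moved as well. Without the 3 libraries with Xist reads 34 members were lower. There, 49 members were called (30.7% of all tested genes), 31 of them also called in all libraries. The cause was not tested. A replicate block gave 12 higher and 19 lower (9.22% and 11.5% of all tested genes). Whether the numbers in the titles pair the samples is not known. Correlations of same-numbered libraries ran from 0.0265 to 0.159 and 2 of 5 numbers matched best with themselves. Such values cannot decide it, since a weak pairing could give them too. Without the 14 members that RefSeq lists as protein-coding or pseudogene, an alternative chosen after seeing the data, 93 were left. Of these 11 were higher and 19 lower, against 10.0% and 12.3% of all tested genes. DESeq2 gave 15 higher and 21 lower (14.9% and 14.3% of all tested genes), TMM 12 and 20 (10.5% and 11.6%), and GC centring 9 and 21 (9.06% and 9.07%). Fitting with no filter gave 10 and 16. The shares there, 4.36% and 6.15%, are over all 24888 genes, low ones included, and are not comparable with the others.

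Differences that changed sign all belonged to genes not called. In edgeR these were Neat1 at 0.14, H19 at 0.01, Frmd8 at 0.03 and Slc3a2 at 0.22, and in DESeq2 Neat1 at 0.11, Frmd8 at 0.01 and Slc3a2 at 0.20. TMM gave Slc3a2 at 0.01, and quantile normalization Frmd8 at 0.01 and Slc3a2 at 0.06. GC centring gave Snhg1 at −0.15, Mir99ahg at −0.01, Frmd8 at 0.43, Klhdc4 at 0.25, Itfg1 at −0.13, Chrm2 at −0.30, Zbtb37 at −0.04 and Slc3a2 at 0.34. Without the libraries with Xist reads, Ndufb1-ps stood at −0.45, Snhg1 at −0.12, Snhg6 at −0.11, Snhg14 at −0.11, Frmd8 at 0.18, Psph at −0.27, Klhdc4 at 0.24, Slc3a2 at 0.32 and Morc2a at 0.10. Over the fits without 1 library, the ranges were −0.00 to 0.20 for Lrrc75a, −0.17 to 0.37 for Znfx1, −0.35 to 0.41 for Ndufb1-ps, −0.29 to 0.14 for Frmd8, −0.49 to 0.15 for Klhdc4, −0.18 to 0.24 for Chrm2, −0.27 to 0.35 for Slc3a2, −0.41 to 0.19 for Neat1, −0.48 to 0.02 for Mir22hg, −0.19 to 0.04 for Tbl1xr1 and −0.11 to 0.71 for Snhg14.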

Other observations

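Over all tested genes 10.0% were higher and 12.3% lower in SPOP_CKI (limma). Split by the biotype of the deposited table, 5 of 30 processed transcripts were higher and 3 lower. Of 43 lincRNAs 5 were higher and 9 lower, and of 25 antisense genes 2 were higher and 6 lower. The median difference was −0.06, −0.29 and −0.33 on the log2 scale in these classes. No test compared the classes. Among the 7 bidirectional promoter lncRNAs none was higher in limma, edgeR or DESeq2, and Gm48226 alone was lower. In the authors' deposited table, 14 members are listed with a positive and 20 with a negative fold change at an adjusted p-value under 0.05.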
